A study of Mus musculus with 54 samples.

Results

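In chromatin of combined mutant (CM) mouse testis, 11009 of the 28407 listed peaks of RNA polymerase II (Pol2) did not overlap any Pol2 peak listed for wild-type (WT) testis by as much as 1 bp, and these CM-only peaks are described here. CM mice, labelled DKO, carry a deletion of one Ctcf allele and lack BORIS (gene Ctcfl), the germ cell paralog of the insulator protein CTCF. The comparison addresses what happens to transcription in male germ cells when less CTCF and no BORIS is present. All animals were C57BL/6 males 3 months old, and the whole testis material was a germ cell-enriched suspension pooled from 4 mice a preparation. Of the other genotypes, CTCF HET mice (Ctcf+/-) and BORIS KO mice (Boris-/-), whole testis RNA is used here. The members were chosen on the Pol2 lists themselves, so that the Pol2 scores, widths and gaps below are a description, while transcription starts, other antibodies and RNA were not used in the choice.

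RNA polymerase II transcribes all protein-coding genes. It gathers at promoters, often pauses shortly after the start, and then moves through the gene body, so that its ChIP signal is usually highest at starts and weaker along genes. Trimethylation of lysine 4 of histone H3 (H3K4me3) marks promoters at which transcription can start. In the testis the set of active promoters changes as spermatogonia become spermatocytes and then round and elongating spermatids, and late spermatids compact their chromatin and become silent.

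Each genotype had 2 Pol2 ChIP-seq libraries but a single deposited peak list, so the peaks carry no replicate error and p-values over peaks cover counting only. The 4H8 antibody used binds the repeated C-terminal domain of the largest Pol2 subunit. In the peak lists, score is the number the peak caller gave, with 50 as its lowest value in the CM list. In RNA, Ctcf was at 24.0 to 27.4 counts per 1000000 of the scaled library (CPM) in the 3 CM libraries and 39.9 to 47.0 in the 3 WT libraries, and Ctcfl at 0.122 to 0.201 against 0.531 to 0.688 CPM.

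The promoters of 5 genes that carry the results are shown, each as the 250 bases before the most upstream annotated start inside the strongest CM-only peak of the gene, read from mm9 and written 5′ to 3′ on the strand of the gene. Nasp and Dhx9 stand for the highest peaks, Hspb8 and Cnn3 for genes whose RNA was higher in CM testis, and Fam135b for genes whose RNA was lower. Capitals mark matches, on either strand, to one of the searched motifs.
Nasp, chr4:116300557-116300806, minus strand: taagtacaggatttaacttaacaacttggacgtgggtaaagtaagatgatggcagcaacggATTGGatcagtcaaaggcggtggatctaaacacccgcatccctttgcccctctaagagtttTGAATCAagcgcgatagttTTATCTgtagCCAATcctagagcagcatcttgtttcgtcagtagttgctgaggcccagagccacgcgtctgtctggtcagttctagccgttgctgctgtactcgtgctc
Dhx9, chr1:155334791-155335040, minus strand: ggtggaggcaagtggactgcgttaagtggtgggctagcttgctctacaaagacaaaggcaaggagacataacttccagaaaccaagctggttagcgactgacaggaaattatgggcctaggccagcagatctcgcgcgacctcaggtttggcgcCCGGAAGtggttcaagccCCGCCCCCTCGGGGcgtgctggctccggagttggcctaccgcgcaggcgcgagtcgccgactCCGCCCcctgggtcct
Hspb8, chr5:116872874-116873123, minus strand: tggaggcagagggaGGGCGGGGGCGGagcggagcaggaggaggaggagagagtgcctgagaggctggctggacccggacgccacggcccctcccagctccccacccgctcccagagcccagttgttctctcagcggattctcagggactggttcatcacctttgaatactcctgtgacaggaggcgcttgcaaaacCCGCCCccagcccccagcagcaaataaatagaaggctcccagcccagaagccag
Cnn3, chr3:121129209-121129458, plus strand: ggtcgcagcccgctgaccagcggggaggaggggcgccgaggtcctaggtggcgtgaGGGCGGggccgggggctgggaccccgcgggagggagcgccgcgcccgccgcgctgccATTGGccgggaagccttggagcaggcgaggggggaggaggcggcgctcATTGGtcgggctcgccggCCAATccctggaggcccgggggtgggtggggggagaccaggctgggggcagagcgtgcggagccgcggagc
Fam135b, chr15:71558269-71558518, minus strand: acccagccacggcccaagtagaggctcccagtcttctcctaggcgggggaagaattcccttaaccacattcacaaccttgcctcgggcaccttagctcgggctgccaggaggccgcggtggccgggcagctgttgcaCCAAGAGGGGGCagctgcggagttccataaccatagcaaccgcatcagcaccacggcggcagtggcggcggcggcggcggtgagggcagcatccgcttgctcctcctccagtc
The Hspb8, Dhx9 and Cnn3 windows hold GC boxes (GGGCGG, bound by Sp1-type factors), and the Nasp and Cnn3 windows hold CCAAT boxes (CCAAT). The Fam135b window holds 1 match to a CTCF core (CC, any 3 bases, AG, any 2 bases, GGC). In Dhx9, a GC box and a CTCF core match overlap and are written as a single run of capitals, and the ETS motif (CCGGAAG) lies just upstream of them. The Nasp window also holds a GATA match (AGATAA) and a match to the loose AP-1 pattern searched (TGANTCA, with N any base). That pattern reads the same on both strands, and the Nasp match has A at its open base.

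Most CM-only peaks were low and narrow. Their median score was 72.6 with quartiles of 58.5 and 101, against a median of 205 for the 17398 CM peaks that overlapped a WT peak (shared peaks) and 79.9 for the 8758 WT peaks that overlapped no CM peak (WT-only peaks). The median width was 1166 bp for CM-only and 2017 bp for shared peaks, and CM-only peaks covered 15231747 bp in all. The share of CM peaks that were CM-only fell along 4 equal bins of the CM score, from 70.3% in the lowest bin through 54.2% and 27.0% to 3.51% in the highest. A score of 500 or more was reached by 85 CM-only peaks and 1000 or more by 26, while 50 and 7 WT-only peaks reached these scores.

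**Figure D1:**
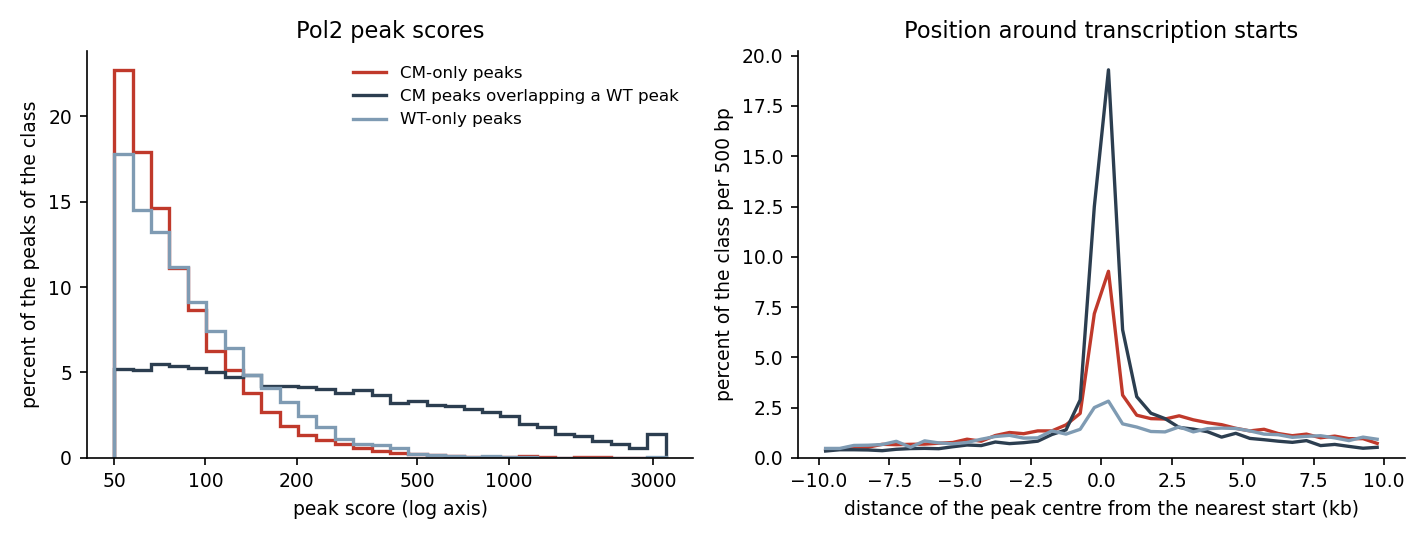
Left, percent of the peaks of each class (vertical) by peak score (horizontal, log axis) for 11009 CM-only peaks, 17398 CM peaks overlapping a WT peak and 8758 WT-only peaks; CM-only and WT-only peaks crowd near the lowest scores. Right, percent of each class per 500 bp (vertical) by distance of the peak centre from the nearest annotated start in kb (horizontal, positive in the direction of transcription); CM-only peaks have a maximum at starts that is lower than that of shared peaks and higher than that of WT-only peaks.

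The gap from a CM-only peak to the nearest WT peak had a median of 9296 bp. It was at most 1000 bp for 1527 members (13.9%) and at most 10000 bp for 5680 (51.6%), and the widest gap was 2885701 bp. Just inside the rule, 203 members lay within 100 bp of a WT peak with a median score of 79.2, and 1 of them touched it. Just outside, 166 shared CM peaks overlapped a WT peak by 1 to 100 bp with a median score of 73.8. CM-only peaks made up between 36.0% and 42.4% of the CM peaks on each autosome and 38.1% on the X chromosome.

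Members often lay along a gene that Pol2 also occupied in WT. Of 5518 protein-coding genes that overlapped a CM-only peak, 1948 held 2 or more and 239 held 5 or more, and 65.1% also had a WT Pol2 peak in the gene. These counts were not adjusted for gene length, and the share for other genes was not determined. The most members, 47, lay in the annotated gene Gm20388, which spans 4434882 bp and held 63 WT peaks. Within 1000 bp of each other, 1463 members (13.3%) formed 666 runs, the longest of 5 peaks. Dhx9, an RNA helicase gene, held 8 CM-only peaks over its first part, while WT Pol2 was listed at its 3′ end alone. In Hspa4l, which encodes a heat shock protein chaperone abundant in testis, 6 CM-only peaks ran from the start at chr3:40547555-40552129 to chr3:40576304-40578248, and the 3 WT peaks began at position 40580061 in the downstream part. Odf2, an outer dense fibre gene of the sperm tail, showed the opposite order, since its first part held Pol2 peaks in both lists and its 5 CM-only peaks began at position 29765056, close after the last WT peak, which ended at 29765018.

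A few genes held many Pol2 peaks in the CM list and none in the WT list. Absence here means only that the single WT list names no peak, and whether that list is complete was not tested. Nasp, which encodes a histone chaperone, had the member with the highest score of all (2977.08, chr4:116295454-116301526, over the start) and 7 CM-only peaks, with the nearest WT peak 21597 bp from the start peak. Azin1, the antizyme inhibitor of polyamine metabolism, had 8 CM-only peaks that covered 89.6% of the gene and no WT peak. Abca1, a cholesterol efflux transporter, had 15 CM-only peaks over 16.4% of the gene and no WT peak, and 15 genes in all had 5 or more CM-only peaks and no WT peak in the gene.

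**Figure D2:**
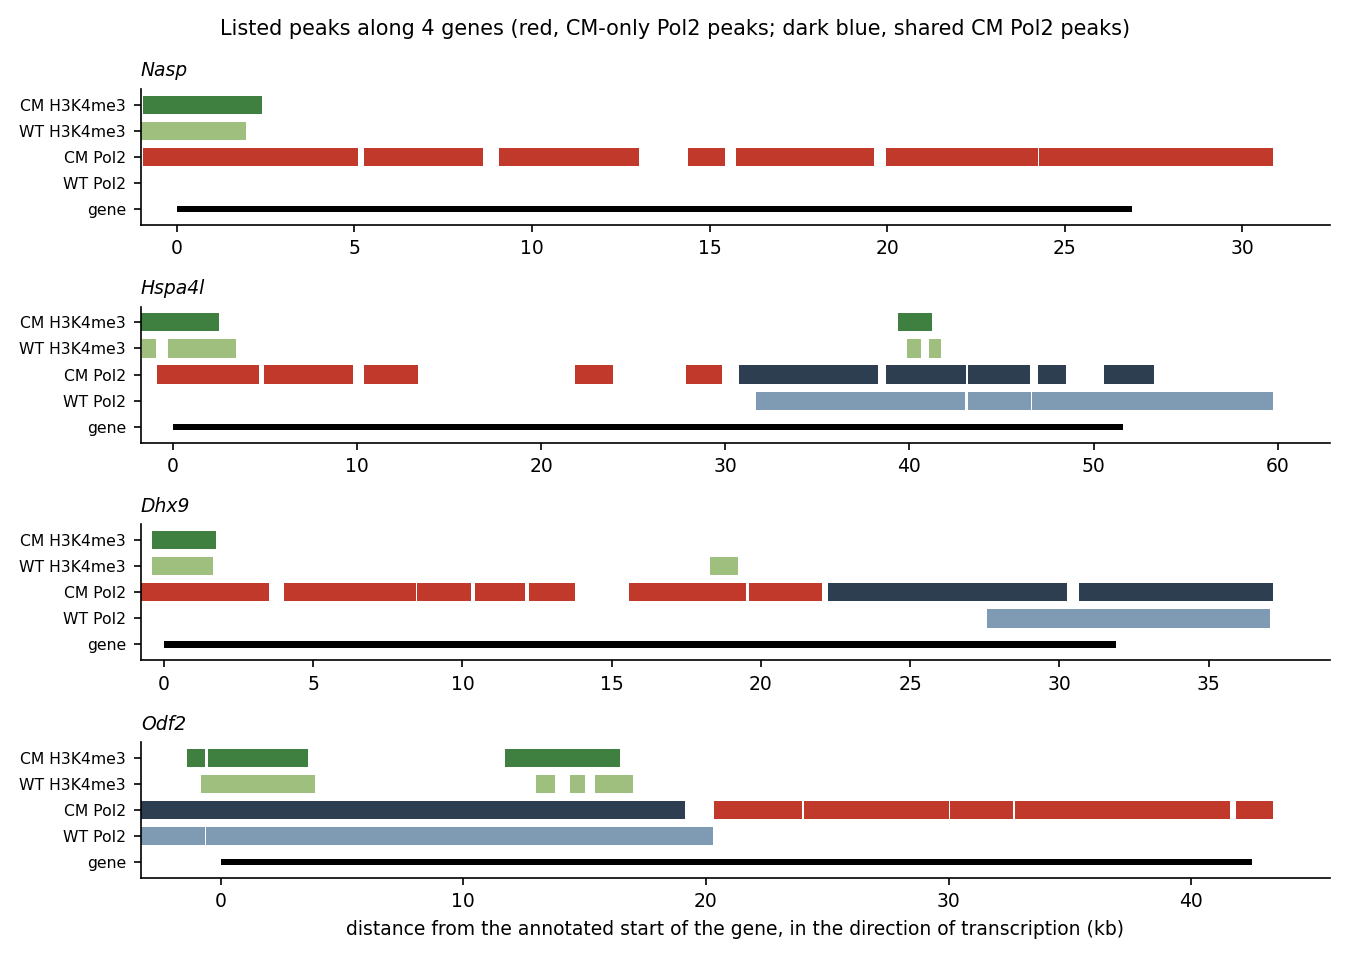
Listed peaks along Nasp, Hspa4l, Dhx9 and Odf2 (rows: the gene, WT Pol2, CM Pol2, WT H3K4me3 and CM H3K4me3) by distance from the annotated start in kb, in the direction of transcription; red bars are CM-only and dark blue bars shared CM Pol2 peaks. Nasp has 7 CM-only peaks and no WT Pol2 peak, whereas in the other genes WT Pol2 peaks cover the part that the CM-only peaks do not; H3K4me3 was listed at the start of all 4 genes in both genotypes.

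RNA of the genes nearest the 8 highest peaks was in no case called higher in CM. Nasp RNA in the 3 libraries was at 1160, 883 and 773 CPM in WT and 566, 737 and 405 CPM in CM whole testis, which is lower in each CM library but did not pass the test (log2 fold change -0.75, adjusted p = 0.0848, edgeR quasi-likelihood test). The H3K4me3 peak at its start scored 1212.68 in WT and 1510.09 in CM, so the WT promoter carried the mark and the gene its RNA where no WT Pol2 peak was listed. For Hspa4l, RNA was 807, 1050 and 1160 CPM in WT and 354, 792 and 662 CPM in CM (log2 fold change -0.78, adjusted p = 0.128). The Hspa4l groups did not overlap, although the highest CM library lay just under the lowest WT library. Dhx9 RNA was 69.4, 72.1 and 64.6 CPM in WT and 94.7, 85.6 and 83.3 CPM in CM (log2 fold change 0.32, adjusted p = 0.257), so that all CM libraries lay above the WT libraries without passing the test.

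Of the 8 members with the highest scores, 5 others lay at or near Sptlc1, Nfkbiz, Pkd2l2, Npm3 and Hax1. The member near Sptlc1, a serine palmitoyltransferase gene, scored 2166.18 at chr13:53488079-53495962, lay between genes 15345 bp from the start, and overlapped H3K4me3 and CTCF peaks of both genotypes. Those at the starts of Nfkbiz (an inflammatory regulator), Npm3 (a nucleoplasmin) and Hax1 (a mitochondrial survival factor) scored 1854.66, 1654.07 and 1619.65 and overlapped H3K4me3 peaks in both genotypes. The RNA of these nearest genes did not pass the test, with adjusted p between 0.113 and 0.569. Pkd2l2, a polycystin channel gene whose member spans its 3′ end and also overlaps Fam13b, was the exception, at 40.6, 42.8 and 52.5 CPM in WT and 8.8, 24.5 and 19.2 CPM in CM (log2 fold change -1.41, adjusted p = 0.0302).

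CM-only peaks lay at starts less often than shared peaks did. Within 1 kb of an annotated start lay 26.8% (Wilson 95% interval 26.0 to 27.6) of members, 50.3% of shared peaks and 12.4% of WT-only peaks, and the odds ratio of members against shared peaks was 0.362 (95% interval 0.343 to 0.381, Fisher's exact test, 7 such tests adjusted together). A further 56.5% of members lay in gene bodies and 16.7% between genes. Within the 4 bins of the CM score the pooled odds ratio was 1.15 (adjusted p = 2.48e-05), but the bins differed. In the lower 3 bins members lay at starts more often (17.6%, 25.6% and 47.5% against 16.1%, 22.5% and 41.8% of shared peaks), and in the highest bin less often (70.3%, 64.3 to 75.6, against 80.4%, 79.4 to 81.3). Within 4 bins of the width the odds ratio was 0.683.

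H3K4me3 was rarer at CM-only than at shared peaks under each of these comparisons. A CM H3K4me3 peak overlapped 21.0% of members and 58.8% of shared peaks (odds ratio 0.186, 95% interval 0.176 to 0.196), and within score bins the odds ratio was 0.56. A WT H3K4me3 peak overlapped 16.5% and 58.7% (odds ratio 0.139, 0.131 to 0.148), and 0.388 within score bins. Among the 2948 members at starts, 44.6% overlapped H3K4me3 peaks of both genotypes, 15.3% a CM peak alone, 2.14% a WT peak alone and 38.0% neither. Of shared peaks at starts, 83.9% overlapped both and 3.12% a CM peak alone. The CM and WT H3K4me3 lists came from 1 library each and differed in size and width, with 20432 peaks of median width 1598 bp in CM and 34347 of 728 bp in WT, and their part in these shares was not tested. The median score of the lists also differed, at 185 in CM and 97.5 in WT.

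CTCF and BORIS peaks overlapped CM-only peaks less often than shared peaks, and at like score WT CTCF peaks alone of the 3 lists passed the test in the other direction. WT CTCF peaks overlapped 9.79% of members and 18.9% of shared peaks (odds ratio 0.466, 0.433 to 0.502, adjusted p = 5.73e-100), but the odds ratio within score bins was 1.33 (adjusted p = 4.83e-09). For CM CTCF peaks the shares were 4.13% and 7.01% (odds ratio 0.572, adjusted p = 1.27e-24), with 1.13 within score bins (adjusted p = 0.0706). WT BORIS peaks overlapped 3.77% and 10.1% (odds ratio 0.348, adjusted p = 1.95e-93), with 1.15 within score bins (adjusted p = 0.0556) and a lower share for members in the highest bin (15.7% against 18.4%). The X chromosome held 1.06% of members and 1.09% of shared peaks (odds ratio 0.973, 0.772 to 1.23, adjusted p = 0.86). At like score the odds ratio for X was 1.72 (adjusted p = 0.000214) and at like width 0.595 (adjusted p = 5.58e-05), in opposite directions.

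**Figure D3:**
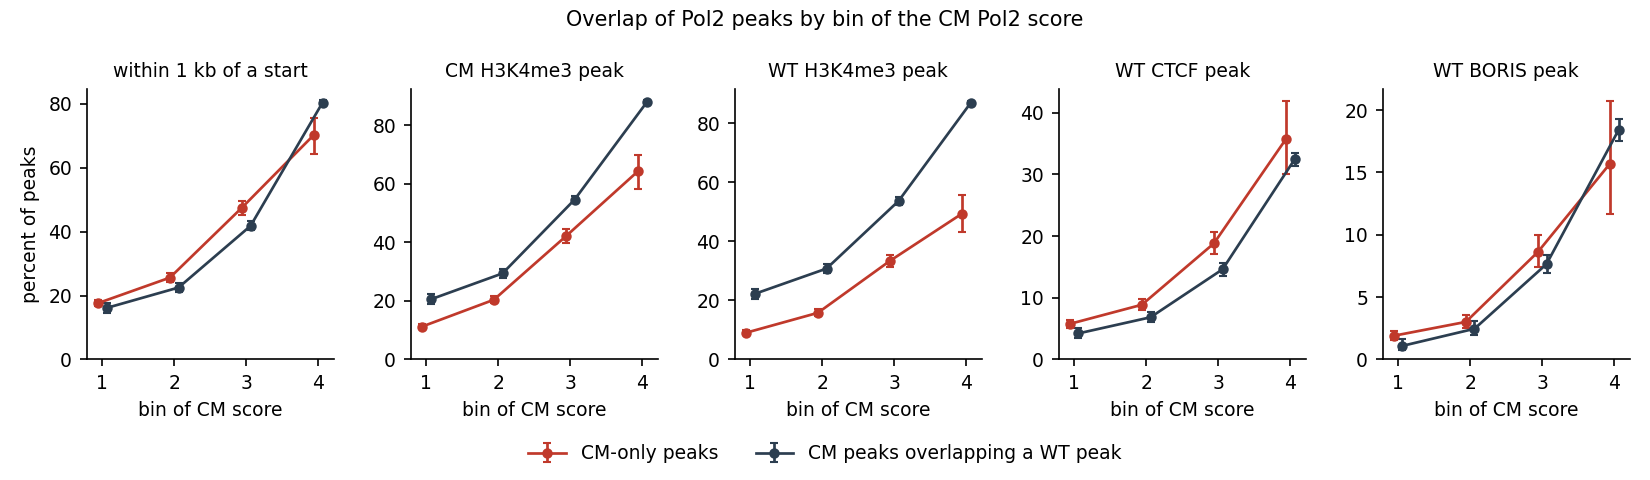
Percent of peaks (vertical, Wilson 95% intervals) within 1 kb of a start or overlapping the named peak list, by bin of the CM Pol2 score (horizontal, lowest to highest), for CM-only peaks (red) and CM peaks overlapping a WT peak (dark blue). The shares rise with the score in both classes, and H3K4me3 is lower for CM-only peaks in every bin.

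Of 1159 WT CTCF peaks under CM-only Pol2 peaks, 58.4% (55.6 to 61.2) had no overlapping CTCF peak in CM. That share was 66.2% for the 3747 under shared peaks, 41.3% for the 276 under WT-only peaks and 40.5% for the 29457 under no Pol2 peak. It followed the height of the WT CTCF peak, from 97.3% in the lowest of 4 bins of height to 6.48% in the highest under members, and in the third bin it was 50.9% under members, 58.4% under shared peaks and 20.1% away from Pol2.

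Over 4713 starts inside a CM-only peak with no WT Pol2 peak within 1 kb, the 250 bases before the start had a median GC content of 59.6%. This was 60.8% at starts in shared peaks and 54.8% at all protein-coding starts. The ratio of observed to expected CpG was 0.699, 0.801 and 0.466 in the same order. A GC box was found in 57.1% of these windows, 57.7% of those in shared peaks and 37.5% of all. The ETS motif was found in 13.3%, 19.1% and 9.0%, the cAMP response element (TGACGTCA, bound by CREM in spermatids) in 2.14%, 3.78% and 1.83%, and the TATA box (TATAAA) in 6.51%, 5.15% and 10.3%. The CTCF core was found in 10.8% of windows in members and 10.9% in shared peaks, with 8.25% over all starts. Transcripts of a gene share much of these windows, and both strands were searched.

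In all, 3001 annotated genes had a start within 1 kb of a CM-only peak. For 2157 of them no WT Pol2 peak lay within 1 kb of any start (CM-only genes), and the other 844 had one at the same or another start. Of the CM-only genes, 83.4% had a CM and 67.2% a WT H3K4me3 peak within 1 kb of a start, 38.1% a WT CTCF peak and 19.0% a WT BORIS peak. The genes were expressed in WT testis at a low level, with a median of 6.62 CPM over the 1849 CM-only genes listed in the RNA table, 33.5 CPM for genes with a shared peak and no member, and 0.457 CPM for genes with no Pol2 peak. In CM testis the median of the CM-only genes was 13.1 CPM, while that of the genes with a shared peak was 32.6 CPM.

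CM-only genes were more often higher in CM testis than other genes were. A call needed an adjusted p under 0.05 (edgeR, Benjamini-Hochberg over all tested genes) and a fold change over 2. Of 16378 tested genes, 15.3% were called higher and 5.9% lower in CM than in WT whole testis. Of the 1752 tested CM-only genes, 622 (35.5%, 33.3 to 37.8) were higher and 25 (1.43%) lower, with a median log2 fold change of 0.81 against 0.003 over all tested genes. The 766 genes with both a member and a WT Pol2 peak at a start had 8.09% higher and 5.35% lower, and the 7585 genes with a shared peak and no member 5.92% and 6.51%. Among 301 genes with a WT Pol2 peak alone, 2.99% were higher and 23.3% lower. Genes without a Pol2 peak in either list were also often higher (24.7% of 5352).

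These counts depended on which library was left out. Over all genes with a member at a start, 684 were higher and 66 lower of 2518 tested. Without WT replicate 2 the calls were 2 higher and 0 lower, where 0.024% and 0.042% of all genes were called. Without WT replicate 3 (0.00592% and 0.0118% of all genes) or CM replicate 3 (0.012% in each direction) none was called. Calls remained without WT replicate 1 (386 higher, 35 lower), CM replicate 1 (575 and 62) or CM replicate 2 (863 and 78). Over all genes these omissions gave 1360 and 454, 2060 and 704, and 3303 and 1080. With the replicate numbers as a block, 781 were higher and 89 lower, beside 18.3% and 8.66% of all genes.

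The difference between CM-only genes and all genes was present at each level of expression. In 4 bins of mean CPM, from low to high, 34.5%, 42.1%, 32.5% and 24.7% of CM-only genes were called higher, where 18.9%, 24.2%, 13.3% and 4.64% of all tested genes were. Genes with a shared peak and no member were higher in 12.2%, 12.6%, 5.79% and 1.51%. For genes with no Pol2 peak in either list it was 19.9%, 31.4%, 29.2% and 23.9%. Their interval overlapped that of CM-only genes in the third bin (26.0 to 32.6 against 28.5 to 36.8). It also did so in the highest bin (19.3 to 29.3 against 19.6 to 30.6). By the score of the member, from the lowest bin to the highest, the share of CM-only genes called higher was 35.4%, 33.3%, 31.5% and 41.8%. CM-only genes with H3K4me3 at the start in both genotypes were higher in 30.6% of 1261 cases, those with a CM H3K4me3 peak alone in 49.4% of 324, and those with none in 48.6% of 140.

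**Figure D4:**
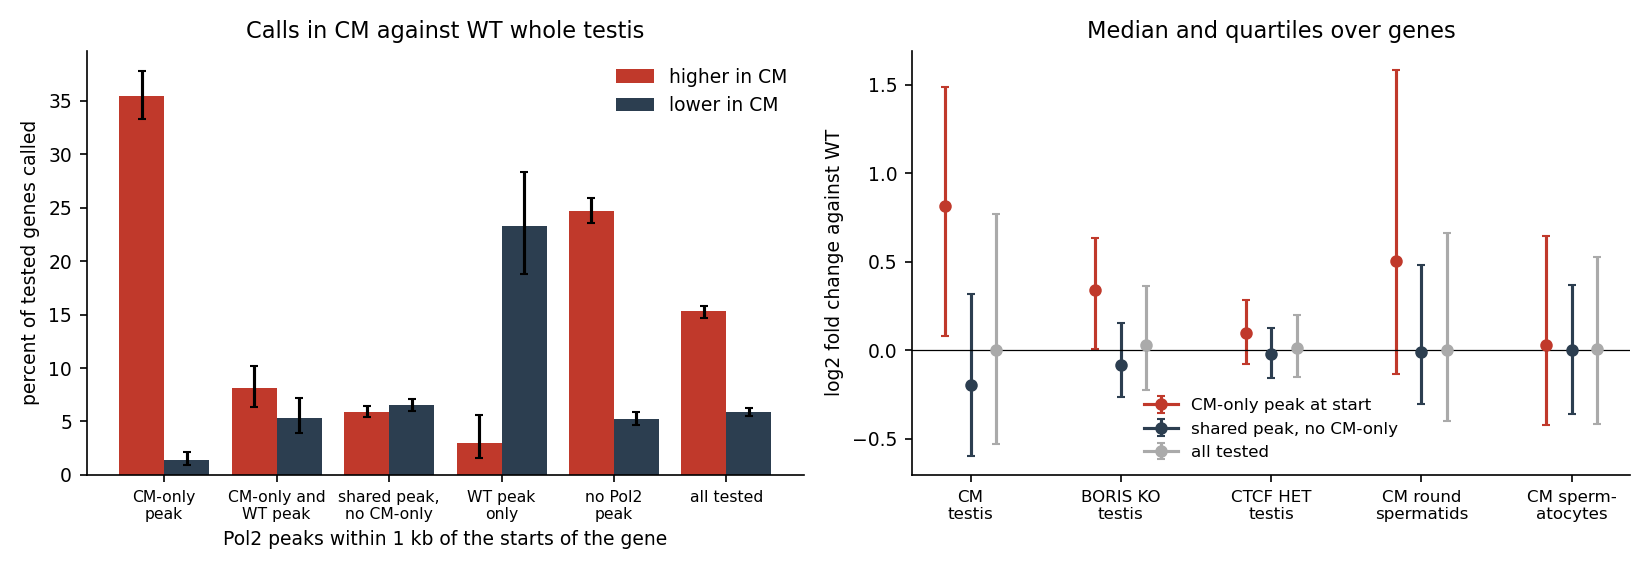
Left, percent of tested genes called higher (red) or lower (dark blue) in CM against WT whole testis RNA (vertical, Wilson 95% intervals) by the Pol2 peaks within 1 kb of their starts; 35.5% of genes with a CM-only peak were higher. Right, median log2 fold change against WT with quartiles over genes (vertical) for 3 gene classes in 5 comparisons; of the 3 classes drawn (CM-only peak at a start, shared peak without one, and all tested genes), the first has the highest median in each comparison.

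Whole testis RNA mixes cell types, and fewer cells of a type and less RNA per cell cannot be told apart. Summed over 11 Leydig cell steroidogenesis genes, RNA was at 481 to 815 CPM in the WT libraries and 2090 to 4160 CPM in CM, and over the 13 Sertoli cell markers (Rhox5 of these was not analysed here) at 280 to 479 and 720 to 1530 CPM. Peritubular and stromal markers summed to 105 to 197 CPM in WT and 368 to 718 CPM in CM. The sums of macrophage markers overlapped between the genotypes, at 505 to 699 CPM in WT and 598 to 936 CPM in CM. Gene by gene, however, 10 of the 12 macrophage markers were called higher and 0 lower. The sums of endothelial markers overlapped too, at 42.7 to 69.7 CPM in WT and 38.8 to 65.8 CPM in CM. Over 12 elongating spermatid markers RNA was at 28700 to 37100 CPM in WT and 10300 to 18600 CPM in CM, and over 19 spermatocyte markers at 2470 to 2800 and 1670 to 2250 CPM. The 15 round spermatid markers summed to 5530 to 5750 CPM in WT and 1960 to 3530 CPM in CM. For the 15 spermatogonial markers the sums were 90.1 to 107 CPM in WT and 168 to 496 CPM in CM. The part of these cell type shifts in the RNA of CM-only genes was not tested.

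Of the 57 genes of the 5 somatic marker lists, 10 had a CM-only peak at a start, beside 2626 of the 21892 genes of the RNA table. It was so for 5 of 13 Sertoli markers (Sox9, Wt1, Cldn11, Amhr2 and Clu), of which Sox9, Amhr2 and Clu were called higher, and for 1 of 11 Leydig genes (Scarb1, the lipoprotein receptor, not called). With or without a member, 7 of 11 Leydig, 5 of 11 tested Sertoli and 7 of 11 peritubular and stromal genes were called higher and 0 lower. Of 9 tested endothelial genes, 2 were higher and 2 lower. Clu, the secreted chaperone clusterin, held 4 CM-only peaks over its start and body and no WT peak, and its RNA was 272, 166 and 194 CPM in WT and 947, 458 and 741 CPM in CM (log2 fold change 1.73, adjusted p = 0.0157). Pdgfra, a growth factor receptor of stromal cells, was 1 of 11 peritubular and stromal genes, at 24.0, 18.5 and 11.7 CPM in WT and 89.5, 52.3 and 83.9 CPM in CM (log2 fold change 2.03, adjusted p = 0.0151). The macrophage genes Cd68 and Cd14, of 12, were both called higher, as were 10 of all 12 (median log2 fold change 2.01), and the endothelial gene Pecam1, of 10, was not called.

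Among germ cell lists, members marked 3 of 15 spermatogonial genes (Sohlh2, Etv5 and Ccnd2), none of 19 spermatocyte genes, 1 of 15 round spermatid genes (Crem, also with a WT peak) and 1 of 12 elongating spermatid genes (Odf2, at an internal start). Etv5, a factor of spermatogonial stem cells, was at 13.4, 9.84 and 10.6 CPM in WT and 30.5, 17.7 and 22.6 CPM in CM (log2 fold change 1.03, adjusted p = 0.0275), and the groups did not overlap. Odf2 was lower in CM, at 4150, 3410 and 2610 CPM against 9160, 5720 and 6140 CPM in WT (log2 fold change -1.08, adjusted p = 0.0291).

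Of the 622 CM-only genes called higher, 614 had CM libraries all above the WT libraries. The share of all tested genes that met both conditions was not determined. Of the 614, 37 shared the smallest adjusted p. Of these 37, 12 are given as examples, with no order among the ties, and Pdgfra above is another. C2, a complement component, was at 37.5, 27.7 and 16.9 CPM in WT and 225, 94.6 and 206 CPM in CM (log2 fold change 2.65 ± 0.39 SE, adjusted p = 0.0151, the same adjusted p for all 12). Cd74, the invariant chain of MHC class II, was at 5.84, 7.9 and 3.35 CPM in WT and 76.9, 35.4 and 29.7 CPM in CM, and the part of the macrophage genes that were higher alongside it was not tested. Cr1l, a regulator of complement, had a member of score 57.05 at its start and was at 2.39, 2.85 and 2.15 CPM in WT against 14.9, 9.17 and 16.0 CPM in CM. Lgmn, a lysosomal protease, was at 34.0, 20.0 and 18.5 CPM in WT and 111, 64.1 and 99.5 CPM in CM. The groups did not overlap, which the choice of these genes required, and CM replicate 2 was the lowest CM library for all but Cd74.

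Ccnd2, cyclin D2, which drives entry into the cell cycle in spermatogonia, rose from 2.24, 2.27 and 1.98 CPM in WT to 26.7, 8.25 and 18.4 CPM in CM (log2 fold change 2.99 ± 0.43). Its member at chr6:127100560-127101252 scored only 59.2, and a CM H3K4me3 peak but no WT one was listed there. Hspb8, a small heat shock protein, had the largest fold of the 12, at 1.18, 0.841 and 1.2 CPM in WT and 23.8, 7.4 and 13.6 CPM in CM (log2 fold change 3.75 ± 0.46). Its start member at chr5:116871496-116873210 scored 154 and overlapped no H3K4me3 peak of either list. Cnn3, calponin 3, an actin-binding protein, was at 2.39, 1.68 and 2.24 CPM in WT and 14.2, 6.17 and 13.5 CPM in CM (log2 fold change 2.38 ± 0.38), and at its start (chr3:121129397-121131169) a WT CTCF peak of height 1259 had no CM partner. The X-linked scaffold kinase gene Cask was at 2.18, 2.2 and 1.46 CPM in WT and 13.8, 7.03 and 10.8 CPM in CM.

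The remaining 4 of the 12 were Lipg (endothelial lipase), Ldhd (D-lactate dehydrogenase), Ifi35 (an interferon-induced protein) and Hivep2 (a zinc finger factor), with log2 fold changes of 2.35, 2.40, 2.27 and 1.76. Without WT replicate 2, WT replicate 3 or CM replicate 3 the adjusted p of each of the 12 lay between 0.0572 and 0.0667.

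**Figure D5:**
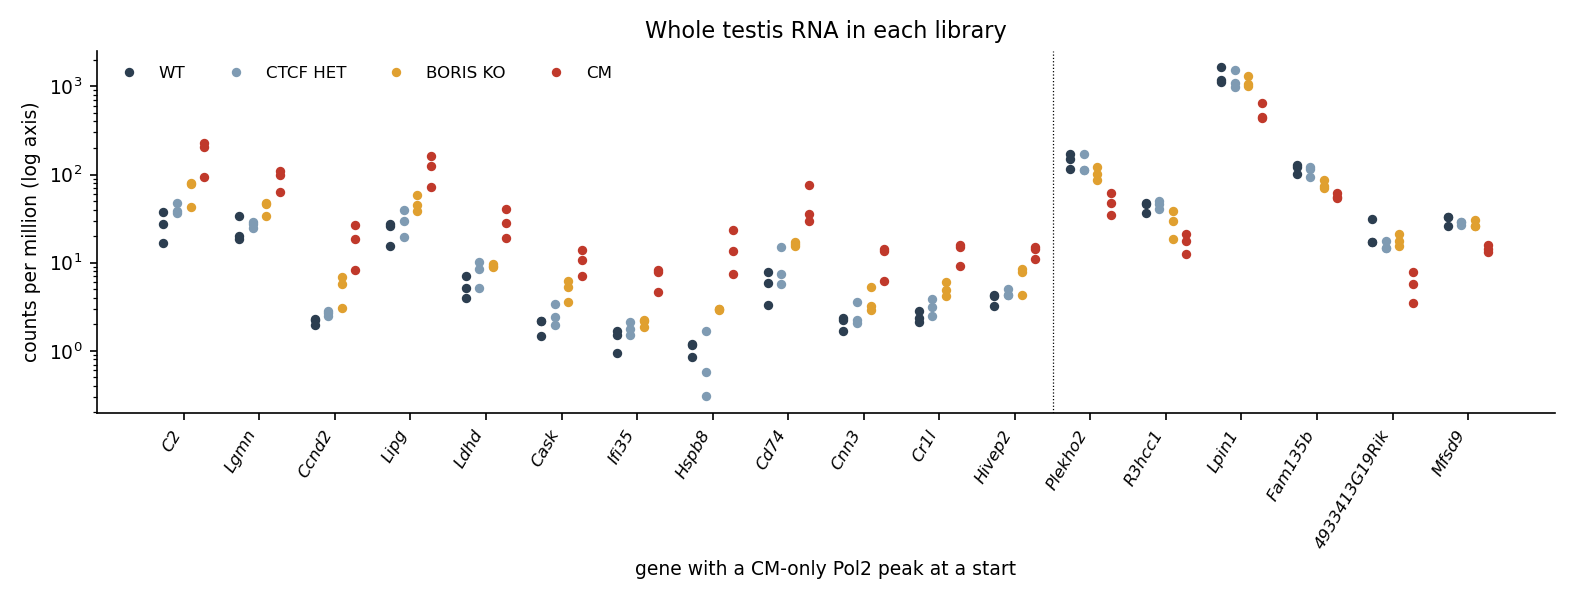
CPM in each whole testis library (vertical, log axis) for 12 CM-only genes called higher and, right of the dotted line, the 6 called lower, with 1 point per library and 3 libraries a genotype (WT dark blue, CTCF HET light blue, BORIS KO orange, CM red). The CM points lie apart from the WT points in all 18 genes, as their choice required.

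The 6 CM-only genes called lower with the smallest adjusted p were Plekho2, R3hcc1, Lpin1, Fam135b, 4933413G19Rik and Mfsd9. Plekho2 was at 152, 169 and 117 CPM in WT and 34.6, 62.0 and 48.1 CPM in CM (log2 fold change -1.62 ± 0.29, adjusted p = 0.0156). Lpin1, the phosphatidate phosphatase lipin 1, was at 1650, 1190 and 1120 CPM in WT and 441, 647 and 450 CPM in CM (log2 fold change -1.39, adjusted p = 0.0165). Beside its start member (score 111) lay a shared CM Pol2 peak of score 180 at chr12:16597117-16599153. The WT peak that this shared peak overlapped lay more than 1 kb from the start. Fam135b was at 127, 121 and 101 CPM in WT and 56.3, 62.4 and 54.7 CPM in CM (log2 fold change -1.04, adjusted p = 0.0168). Its member at chr15:71557749-71558741 covers the most upstream start, and the only other CM Pol2 peak of the gene, inside its body, was shared and had a higher score in WT (643) than in CM (227). In R3hcc1 a shared peak in the gene body also scored higher in WT (225) than in CM (128). WT round spermatids held more Fam135b RNA than WT spermatocytes (log2 difference 5.63, adjusted p = 9.1e-07). Without WT replicate 2, WT replicate 3 or CM replicate 3 none of the 6 passed the threshold, with adjusted p up to 0.0769.

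Among 17 genes of cholesterol and fatty acid synthesis, Sqle, Dhcr7, Fads2 and Elovl5 had a member at a start, and the last 3 of these were called higher in CM. With or without a member, 8 of the 16 tested genes of this list were called higher and 0 lower. Fads2, the delta-6 desaturase, is also 1 of 16 loci the study examined, a list drawn from these data, and was at 88.3, 55.2 and 46.7 CPM in WT and 924, 198 and 267 CPM in CM (log2 fold change 2.82, adjusted p = 0.0165). At its start a CM-only Pol2 peak (chr19:10174431-10176553, score 135) and a CM H3K4me3 peak of score 347 stood beside a WT H3K4me3 peak of score 66.7, and the WT CTCF peak there had no CM partner. Over all H3K4me3 peaks the median score was 185 in CM and 97.5 in WT. For Dhcr7 and Elovl5 the member lay at an internal start, while the first start held Pol2 in both lists.

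Of the other loci of the study, Ctcf, Fads1, Ankrd52, Mfi2 and Fert2 held CM-only peaks in the gene or at its 3′ end and not at a start, with scores of 52.2 to 81.0. Fads1 and Ankrd52 were called higher and Mfi2 lower in CM testis, whereas Kit, higher in CM (log2 fold change 2.86, adjusted p = 0.0159), had no Pol2 peak in either list. Members marked 3 of 37 genes of Pol2 and its initiation and pausing factors (Polr2l, Cdk9 and Th1l), none of them called. Of 15 apoptosis genes 5 had a member at a start (Bax, Bbc3, Pmaip1, Casp9 and Cdkn1a), and Bax alone was called, at 1.68, 1.75 and 2.92 CPM in WT and 7.0, 4.95 and 7.78 CPM in CM (log2 fold change 1.61, adjusted p = 0.0189). Of 15 immediate early and heat shock genes Atf3 had one and was not tested.

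The single mutants were set against the same WT libraries. In BORIS KO testis 0.00612% of 16344 tested genes were called higher and 0.0489% lower. Of 2497 genes with a member, 1 was called higher and 0 lower. An unadjusted p under 0.05 was reached by 597 of the member genes, beside 2717 of all 16344 tested genes. With the replicate block, 1.26% of all genes were called higher and 0.41% lower, and of member genes 56 and 1. DESeq2 called 43 member genes higher and 3 lower, and 0.918% and 0.459% of all genes. The median log2 fold change of the CM-only genes in BORIS KO was 0.34, against 0.03 over all tested genes. It was 0.23 for genes with no Pol2 peak in either list. In CTCF HET testis 0.00621% of genes were called higher and 0.0% lower, and of 2472 member genes 0. The median log2 fold change there was 0.10 for CM-only genes and 0.07 for genes with no Pol2 peak in either list. An unadjusted p under 0.05 was reached by 61 member genes, beside 424 of all 16097 tested genes. DESeq2 also called 0 member genes there, and 0.0124% of all genes higher and 0.00621% lower. Hspb8 was at 2.99, 2.94 and 2.97 CPM in BORIS KO and 0.576, 0.304 and 1.68 CPM in CTCF HET testis, beside the WT and CM values above.

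Purified round spermatids and spermatocytes gave few calls by edgeR. In round spermatids 0.00654% of 15298 genes were called higher and 0.0% lower in CM, and of 2309 member genes 0. An unadjusted p under 0.05 was reached by 567 member genes, beside 3136 of all 15298 tested genes. DESeq2 called 6.45% of all genes higher and 2.69% lower, and 278 and 27 of the member genes, while edgeR without CM replicate 1 called 102 and 27, and 2.4% and 2.73% of all genes. The median log2 fold change of the CM-only genes there was 0.50. In spermatocytes, with 2 WT libraries, 0.339% of 14747 genes were called higher and 0.0949% lower, and of 2300 member genes 4 and 3, with a median of 0.03 for CM-only genes. DESeq2 called 6.06% and 1.74% of all genes and 120 and 35 of the member genes. Without CM replicate 1, edgeR called 152 and 143 member genes, and 8.61% and 6.5% of all genes. With the block it called 0 member genes, as it did with any other library left out.

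CM-only genes were weakly expressed in both purified stages of WT, with medians of 1.58 CPM in round spermatids and 1.42 CPM in spermatocytes, beside 22.5 and 24.7 CPM for genes with a shared peak and no member. Of the genes tested between the WT stages, 29.3% were higher in round spermatids and 23.0% lower. Of 2373 member genes, 509 (21.4%) were higher in round spermatids and 653 (27.5%) higher in spermatocytes.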

How the data were processed

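Testis ChIP-seq (50 bp reads) was aligned to mm9 with Bowtie2 and peaks were called with MACS by the authors, who deposited 1 Pol2 and 1 H3K4me3 list per genotype; how the 2 Pol2 libraries were combined is not given in the sources used here. The peak score is a score as deposited, whose scale is not stated; CTCF and BORIS peak heights are the pileup signal as deposited. The authors deposited raw counts per gene (whole testis, Ion Proton, rRNA-depleted; round spermatids and spermatocytes, poly(A)); counting tool and strand setting are not given in the sources used here, so overlapping and antisense genes cannot be told apart. Total counts were 10437683 to 42055813 in whole testis and 47740650 to 98545423 in purified cells.

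Overlaps, starts and sequence came from the mm9 (NCBIM37) genome and annotation, with 21897 gene symbols matched as written, 20 through other symbols and 1392 not. A peak was a member under 1 bp of overlap. Shares were compared by two-sided Fisher's exact tests (SciPy 1.17.1), stratified by 4 score or width bins as alternatives. Counts were fitted with edgeR 4.0.16 (TMM, filterByExpr at a minimum count of 10, quasi-likelihood), DESeq2 1.42.0 being an alternative, and tested on simulated data. CPM are counts per 1000000 of the TMM-scaled library. Replicates were labelled samples, and p-values measure the spread between them. Same-numbered whole testis libraries deviated together in 18 of 18 pairs (correlations 0.175 to 0.676), from the data and not the labels. Named genes were the 12 higher and 6 lower with the smallest adjusted p and libraries apart (ties among 37 higher genes were left in sorted order), the 8 highest members, and list genes with a member. The members and lists were chosen with earlier results of these data known. Some genes of the fixed lists are not reported here.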

Additional observations from a re-analysis of the deposited data

Results flagged for a closer look

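For 10 named genes, all CM spermatocyte libraries lay beyond all WT spermatocyte libraries in one direction and all CM whole testis libraries beyond all WT whole testis libraries in the other. Genes whose fitted values differed in sign while their libraries overlapped are not counted. The share of all genes whose libraries lay apart in opposite directions in the 2 materials was not determined. Some of the named genes had been chosen because their whole testis libraries lay apart, and spermatocytes had only 2 WT libraries. The difference between the 2 materials was not tested, and no spermatocyte value passed edgeR's threshold. C2 (log2 fold change in CM against WT spermatocytes -0.86), Lipg (-0.80), Clu (-0.66), Etv5 (-1.12), Dhcr7 (-0.55) and Fads1 (-0.57) were lower in CM spermatocytes and higher in CM whole testis. Plekho2 (0.79), Fam135b (1.62), Hspa4l (0.23) and Spo11 (0.27) were higher in CM spermatocytes and lower in CM whole testis. Adjusted p in spermatocytes was 0.108 for Fam135b, 0.1 for Lipg and 0.142 for Hspa4l.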

How the results depend on the processing

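The number of CM-only peaks was 11900 when 50% of the shorter peak had to overlap, 9483 when a WT peak within 1 kb counted as shared, and 4330 among peaks in the upper 50% of the scores of each list. Within 4 bins of the CM score the odds ratios of members against shared peaks changed side of 1 for starts (1.15), WT CTCF (1.33), the X chromosome (1.72) and, short of the threshold, CM CTCF (1.13) and WT BORIS (1.15), and in the upper 50% of scores for X (1.57). The CM CTCF difference was lost there (0.955) and within 4 width bins (0.933), in which X passed (0.595). The H3K4me3 odds ratios stayed below 1 in every alternative run. The cause of these changes was not tested beyond the strata themselves.

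For member genes called in CM whole testis (750 in all), an adjusted p under 0.001 left 0, and leaving out 1 library gave 0 to 941. BORIS KO calls (1) became 0 at 0.001, 46 with DESeq2, 57 with the replicate block, and 0 to 6 without 1 library. CTCF HET calls (0) became 1 with the block. Round spermatid calls (0) became 305 with DESeq2 and 376 when the 4 genotypes were fitted together, and 0 to 129 without 1 library. Spermatocyte calls (7) became 0 at 0.001, 12 with no fold threshold, 155 with DESeq2, 11 with no filter, 60 with all 4 genotypes, 0 with the block, and 0 to 295 without 1 library. In purified cells same-numbered libraries did not pair, with 6 of 18 pair correlations over 0.1 in round spermatids and 2 of 15 in spermatocytes. For single genes named, 142 alternatives kept direction and side of the threshold, and 56 lost the threshold with the same direction, in each case with 1 library left out. Peak lists without replicates and whole testis depth limit these values.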

Other observations

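Away from starts, the central 300 bases of 8061 CM-only peaks had a median GC content of 45.7%, the same as the 8650 shared peaks away from starts, whereas the 7672 WT-only peaks had 40.7%. An SF-1 motif (TCAAGGTCA), the site of the steroidogenic factor of Leydig and Sertoli cells, was found in 1.24% of CM-only centres, 0.983% of shared and 0.678% of WT-only centres. A GATA motif was found in 14.3%, 14.9% and 20.6%, and the CTCF core in 4.16%, 4.31% and 2.91%. These are matches of letters on either strand, with no test.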
